A study of Drosophila melanogaster with 3 samples.

Results

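The cytosolic ribosome of Drosophila melanogaster is built from ribosomal RNA and the proteins encoded by the RpL and RpS genes, and these genes were followed in the lymph gland, the blood-forming organ of the larva. The gene set held every gene whose symbol begins with RpL or RpS and carries a digit, which gave 92 of the 17490 genes in the count files, 54 named for the large subunit (RpL) and 38 for the small subunit (RpS). The rule used names only and no expression value, but it was set with earlier results of these data known. Of the 92, 78 are here called canonical copies, and 14 are second copies or like-named relatives of a canonical copy.

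Bulk RNA sequencing had been done on lymph glands of the wild-type laboratory strain Oregon-R in steady state, that is without immune challenge, at 72, 96 and 120 h after egg laying (AEL). Each time was a single library made from pooled primary lobes, after ring gland, dorsal vessel and posterior lobes had been detached, and the labels name no transgene or agent. With 1 library per time no difference below has a replicate check, so no p-value is given and the comparisons are between libraries and not between stages. In bulk RNA, fewer cells of a type and less RNA per cell cannot be told apart.

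Ribosomal proteins hold the ribosomal RNA in shape, line the tunnel through which the new protein leaves, and form the sites where translation factors dock. The large subunit carries out peptide bond formation and the small subunit reads the messenger RNA. In Drosophila, loss of 1 copy of many of these genes gives the Minute phenotype of slow growth and thin bristles, and loss of RpS6 or RpS21 is known to enlarge the larval lymph gland.

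Total counts were 49511614, 37922500 and 34278733 at 72, 96 and 120 h AEL. Among genes with 1 to 20 counts, 69.6% to 72.0% had an even count, so counting intervals are too narrow by an unknown amount. The 6 hemocyte markers (srp, Hml, Pxn, NimC1, Tep4, Ance) were present in all 3 libraries, with summed levels of 28144, 39801 and 40533 CPM (counts per 1000000 counts of the library, scaled by the trimmed mean of M-values, TMM) at 72, 96 and 120 h AEL. The 6 did not all move alike. From 72 to 96 h AEL 5 were higher and 1, Tep4, was lower. From 96 to 120 h AEL 4 were higher and 2, Tep4 and Hml, were lower. Tep4 had 12238, 10744 and 10238 CPM, Hml 7999, 15024 and 12241 CPM and NimC1 71.7, 613 and 857 CPM at 72, 96 and 120 h AEL. RNA of neighbouring tissues was highest at 72 h AEL. All 5 muscle markers were lower at 96 and 120 h AEL, with summed levels of 2451, 163 and 107 CPM at 72, 96 and 120 h AEL and none at 0. All 3 ring gland markers had the same order, at 413, 131 and 65.2 CPM, as did the 4 neuron markers in sum, at 81.4, 9.33 and 8.78 CPM, with brp at 0 at 96 h AEL. All 3 crystal cell markers were higher at 96 and 120 h AEL, at 672, 13355 and 16566 CPM in sum over the same times. The part of these shifts in the values below was not tested.

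Transcripts of the ribosomal protein genes took a smaller share of the counts at 96 and 120 h AEL than at 72 h AEL. The share was 18.7%, 14.1% and 15.1% of all counts at 72, 96 and 120 h AEL, with Wilson 95% intervals, which cover counting error only, of 18.72% to 18.74%, 14.04% to 14.06% and 15.08% to 15.10%. RpL genes took 11.7%, 8.74% and 9.41% of all counts at 72, 96 and 120 h AEL, and RpS genes 7.03%, 5.31% and 5.67%. Within the set the balance of the subunits moved little, with RpL genes at 62.5%, 62.2% and 62.4% of the set's counts at 72, 96 and 120 h AEL. Genes of the mitochondrial genome, which share the same totals, took 3.88%, 6.64% and 5.54%.

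Nearly all single genes shifted the same way in each pair of libraries, and by little. The 96 h AEL library was set against that of 72 h AEL (the first step), the 120 h AEL library against that of 96 h AEL (the second step), and the 120 h AEL library against that of 72 h AEL (the whole interval). For each pair a log2 ratio was taken of CPM plus 1, over the 9056 genes that reached 1 CPM in 1 library or more, among which were 84 of the 92 (50 RpL and 34 RpS). The other 8 are second copies below 1 CPM in every library and are described further on. In the first step, 78 of the 84 genes were lower, against 51.7% of all tested genes, and 6 were higher, against 48.3%. Their median log2 ratio was -0.34, and that of all tested genes was -0.02. In the second step, 82 of 84 were higher, where 48.9% of all tested genes were higher, and 2 were lower, where 47.8% of all tested genes were lower, and the median log2 ratio was 0.14 for the ribosomal protein genes and 0.00 for all tested genes. Over the whole interval, 74 of 84 were lower, where 52.6% of all tested genes were lower, and 10 were higher, where 47.4% of all tested genes were higher, with medians of -0.19 for the ribosomal protein genes and -0.04 for all tested genes. The 3 comparisons share libraries in pairs, so they are not independent of each other.

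Few of these shifts were large. A change of 2-fold or more was found in 1 gene, RpS19b, which was lower in the first step (19.5% of all tested genes were that much lower) and over the whole interval (20.7% of all tested genes). None of the 84 was 2-fold lower in the second step (1.12% of all tested genes), and none was 2-fold higher in any comparison, where 4.76% of all tested genes were 2-fold higher in the first step, 1.47% in the second step and 7.39% over the whole interval. At 1.5-fold, 6 genes were lower in the first step (24.9% of all tested genes), which were RpS19b, RpL22, RpS9, RpL10Ab, RpL35A and RpL17. Over the whole interval, 2 were lower by that fold (27% of all tested genes), RpS19b and RpS9. In the second step there were 0 lower by 1.5-fold (3.15% of all tested genes) and 0 higher by it (4.07% of all tested genes). None of the 84 was higher by 1.5-fold in the first step (13.1% of all tested genes) or over the whole interval (16.7% of all tested genes). None reached 4-fold. Of all tested genes, 8.62% were 4-fold lower and 1.2% 4-fold higher in the first step, 0.0663% lower and 0.188% higher in the second step, and 9.68% lower and 2.11% higher over the whole interval.

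The spread within the set was narrow. The middle 50% of the 84 log2 ratios spanned 0.22 in the first step, 0.06 in the second step and 0.20 over the whole interval, where the middle 50% of all tested genes spanned 0.90, 0.29 and 1.07 in these comparisons. Ribosomal protein genes are among the most deeply counted genes, with 83 of the 92 at 1000 counts or more in every library, while many of the tested genes have few counts, so the 2 spans do not rest on equal depth. The medians of the subunits lay close to each other. In the first step they were -0.35 for 50 RpL and -0.32 for 34 RpS genes, in the second step 0.13 for RpL and 0.14 for RpS, and over the whole interval -0.19 for both.

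**Figure D1:**
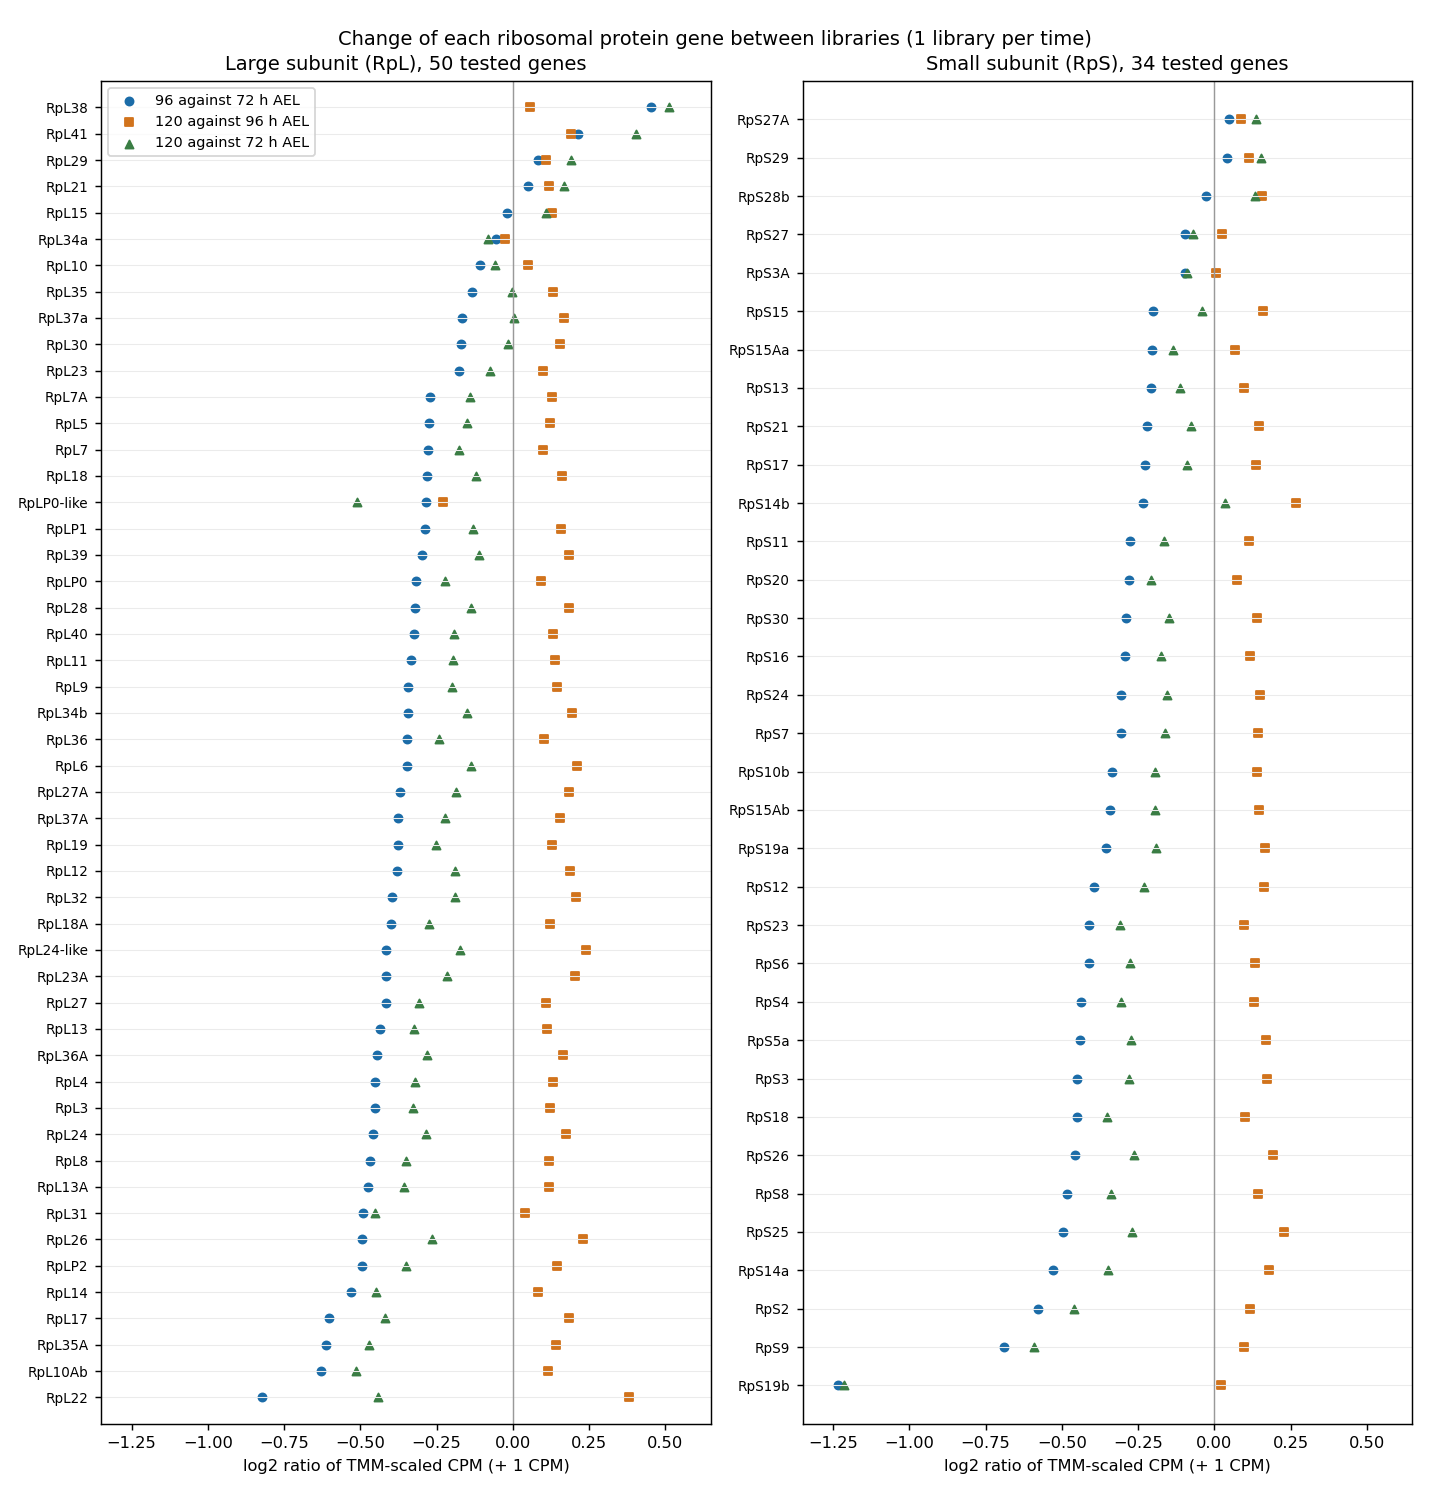
Each row is a ribosomal protein gene, large subunit left and small subunit right, and the x axis is the log2 ratio of TMM-scaled CPM plus 1 in the 3 pairs of libraries, with 1 library per time and no error bar. Most circles (96 against 72 h AEL) lie left of 0 around the median of -0.34 and nearly all squares (120 against 96 h AEL) right of 0 around 0.14, while RpL38 and RpL41 lie right of 0 in all pairs and RpS19b lies far left in the pairs with 72 h AEL; total-count scaling turns the sign of 3 genes near 0 in each pair (RpL21, RpS27A and RpS29 in the first step, RpS19b, RpS27 and RpS3A in the second step, RpL15, RpL37a and RpS14b over the whole interval).

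A handful of large subunit genes stood at the upper end of the comparisons with 72 h AEL. RpL38, a small protein of the large subunit that in the mouse is known for its effect on the translation of Hox messenger RNAs, had 571, 784 and 815 CPM at 72, 96 and 120 h AEL. It was 1.37-fold higher in the first step (95% counting interval 1.35 to 1.39, log2 ratio 0.45) and 1.43-fold higher over the whole interval (1.40 to 1.45, log2 ratio 0.51), the highest log2 ratio of the 84 in both comparisons. The 72 h AEL library was the low one, and the later libraries differed by a log2 ratio of 0.06. RpL38 lies on chromosome 2R at 4515388 to 4516458 on the minus strand (BDGP6.54 annotation).

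RpL41, the smallest protein of the ribosome, had 2111, 2447 and 2792 CPM over the 3 times, being higher at each later time, by 1.16-fold in the first step (log2 ratio 0.21) and 1.14-fold in the second step (log2 ratio 0.19). Over the whole interval it was 1.32-fold higher (1.31 to 1.33). RpL29 had 783, 829 and 895 CPM at 72, 96 and 120 h AEL, with log2 ratios of 0.08 in the first step and 0.19 over the whole interval. RpL41 and RpL38 kept their direction under each scaling tried. RpL29 was level in the first step under total-count scaling, with a log2 ratio of 0.00, and stayed higher over the whole interval, at 0.08.

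RpL21, RpS27A and RpS29 were nearly level in the first step. RpL21, a large subunit protein, had 2213, 2289 and 2484 CPM at 72, 96 and 120 h AEL. RpS29, a protein of the head of the small subunit, had 1582, 1628 and 1761 CPM over the same times. Their log2 ratios in the first step were 0.05 for RpL21, 0.05 for RpS27A and 0.04 for RpS29, and all 3 turned negative under total-count scaling. Over the whole interval they were 0.17, 0.14 and 0.15, positive under every scaling tried. RpS28b, at 1453, 1427 and 1592 CPM, had 0.13 in that comparison.

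At the lower end, RpL22 was the canonical gene that moved most in the first step. RpL22, an RNA-binding protein on the outer face of the large subunit, had 1107, 625 and 814 CPM at 72, 96 and 120 h AEL. It was 1.77-fold lower in the first step (1.74 to 1.80, log2 ratio -0.82), 1.30-fold higher in the second step (1.28 to 1.33, log2 ratio 0.38) and 1.36-fold lower over the whole interval (log2 ratio -0.44). Its log2 ratio in the second step was the highest of the 84, so that the 96 h AEL library was the low one for this gene. RpL22 lies on chromosome X at 762560 to 765130 on the minus strand, and a noncoding gene on the same strand, lncRNA:CR42491, covers 377 of its exonic bases, so reads there could have been given to either gene or dropped.

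RpS9, a protein of the small subunit body, had 680, 421 and 451 CPM at 72, 96 and 120 h AEL. It was 1.61-fold lower in the first step (1.58 to 1.64, log2 ratio -0.69) and 1.51-fold lower over the whole interval (1.48 to 1.54, log2 ratio -0.59). The 72 h AEL library was the high one and the later libraries were close to each other, with a log2 ratio of 0.10 in the second step. An antisense gene, asRNA:CR45874, covers 512 of the exonic bases of RpS9, and whether strand was used in counting is not given in the sources used here, so reads of the pair cannot be told apart.

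RpL10Ab, the protein of the L1 stalk that moves with the leaving transfer RNA, had 2495, 1612 and 1747 CPM at 72, 96 and 120 h AEL, with log2 ratios of -0.63 in the first step and -0.51 over the whole interval. RpL35A had 1819, 1189 and 1311 CPM (log2 ratios -0.61 and -0.47 in these comparisons). RpL17, which lines the exit tunnel, had 2081, 1371 and 1557 CPM (-0.60 and -0.42). These 3 large subunit genes were highest at 72 h AEL and were 1.52-fold to 1.55-fold lower at 96 h AEL. RpS2, a protein near the entry channel of the messenger RNA, had 3485, 2334 and 2533 CPM, and its log2 ratios were -0.58 in the first step and -0.46 over the whole interval.

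In the second step the genes beside RpL22 at the upper end were RpS14b (log2 ratio 0.27), RpL24-like (0.24), RpL26 (0.23) and RpS25 (0.23). RpL26, a protein beside the exit tunnel, had 2012, 1428 and 1676 CPM at 72, 96 and 120 h AEL. RpS25, which in yeast and mammals is needed for translation from viral internal entry sites, had 1942, 1376 and 1611 CPM. For both, the 96 h AEL library was the low one and 72 h AEL the high one. At the lower end of this comparison were RpLP0-like (-0.23), RpL34a (-0.03), RpS3A (0.01), RpS19b (0.02) and RpS27 (0.03), followed by RpL31 (0.04).

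RpS3A, the only member on the small chromosome 4 (65225 to 67207, minus strand), had 3276, 3063 and 3078 CPM at 72, 96 and 120 h AEL. Its log2 ratio of -0.10 in the first step lay 0.25 above the median of the set, and the 3 libraries stayed within 1.07-fold of each other. RpS27, a zinc-finger protein of the small subunit, had 1149, 1075 and 1095 CPM and was as level, with a log2 ratio of -0.10 in the first step. RpL31 had 2089, 1487 and 1528 CPM, with a log2 ratio of -0.49 in the first step and 0.04 in the second step. Under total-count scaling RpS3A, RpS27 and RpS19b were lower in the second step.

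**Figure D2:**
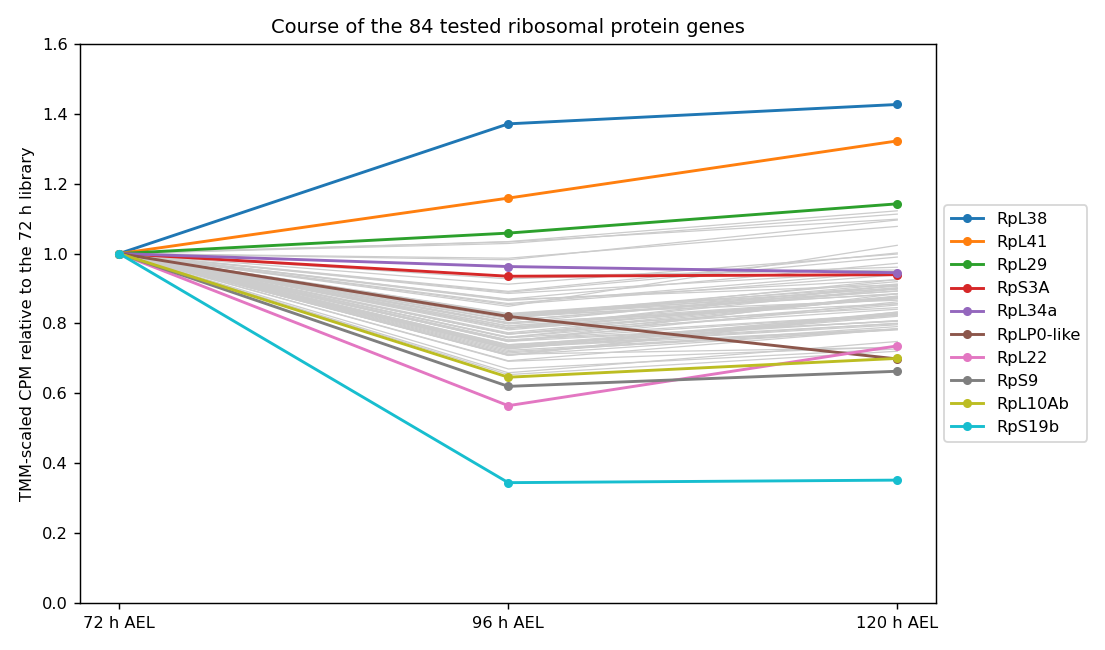
The y axis is TMM-scaled CPM divided by the 72 h AEL value of the same gene, on a linear axis starting at 0, for the 84 tested genes, with 10 of them coloured and the others grey; each point is 1 library. Most lines drop at 96 h AEL and lie a little higher at 120 h AEL, whereas RpL38 ends 1.43-fold and RpL41 1.32-fold above 72 h AEL, RpLP0-like is lower at each later time, and RpS19b stays near 0.35 of its 72 h AEL level.

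Levels of different genes were compared per length, as TPM (counts per base of the median annotated transcript, scaled to 1000000). The scaling ran over the genes matched to the annotation, 17216 by identifier and 123 by symbol. The 78 canonical genes had medians of 4497, 3744 and 4035 TPM at 72, 96 and 120 h AEL, with ranges of 1222 to 9978, 860 to 11994 and 900 to 13396 TPM. The highest was thus 8.17-fold, 13.9-fold and 14.9-fold above the lowest at 72, 96 and 120 h AEL. RpL41 was the highest at all 3 times, at 9978, 11994 and 13396 TPM. Its transcript is annotated with 320 bases, and TPM of so short a transcript depends on how library preparation treats short fragments. The stalk proteins RpLP2 and RpLP1 came next at 72 h AEL, at 7281 and 7151 TPM, and RpLP1 was also the next highest at 96 and 120 h AEL, at 6070 and 6628 TPM.

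At the low end of the canonical genes were RpL38, RpS9, RpL22 and RpS14a. RpL38 was the lowest of the 78 at 72 h AEL, at 1222 TPM, and had 1738 and 1770 TPM at 96 and 120 h AEL, where RpS9 was the lowest at 860 and 900 TPM. RpL22 had 1522, 891 and 1137 TPM and RpS14a 1951, 1403 and 1554 TPM at 72, 96 and 120 h AEL. With the union of all annotated exons as the length, a choice added after the data were seen, RpL41 was still the highest at all 3 times, RpL38 the lowest at 72 h AEL and RpS9 the lowest at 96 and 120 h AEL. Other places changed with this length. RpL14 (7889 TPM) then lay above RpLP1 (7408 TPM) at 72 h AEL. RpL23 was then the next highest after RpL41 at 96 and 120 h AEL, at 6510 and 6840 TPM, where RpLP1 had 6243 and 6829 TPM. At the low end, RpL5 (1506, 1283 and 1370 TPM) and RpS21 (1572, 1388 and 1505 TPM) then lay below RpS14a (1965, 1403 and 1556 TPM) at all 3 times. The order of the 78 genes was much the same in the later libraries, with a Spearman rank correlation of TPM of 0.993 for the pair of the second step. It was 0.922 for the pair of the first step and 0.928 for that of the whole interval. The Pearson correlations of log2 TPM for these pairs were 0.996, 0.930 and 0.937. All are given as a description over 78 genes that share libraries, lengths and annotation.

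**Figure D3:**
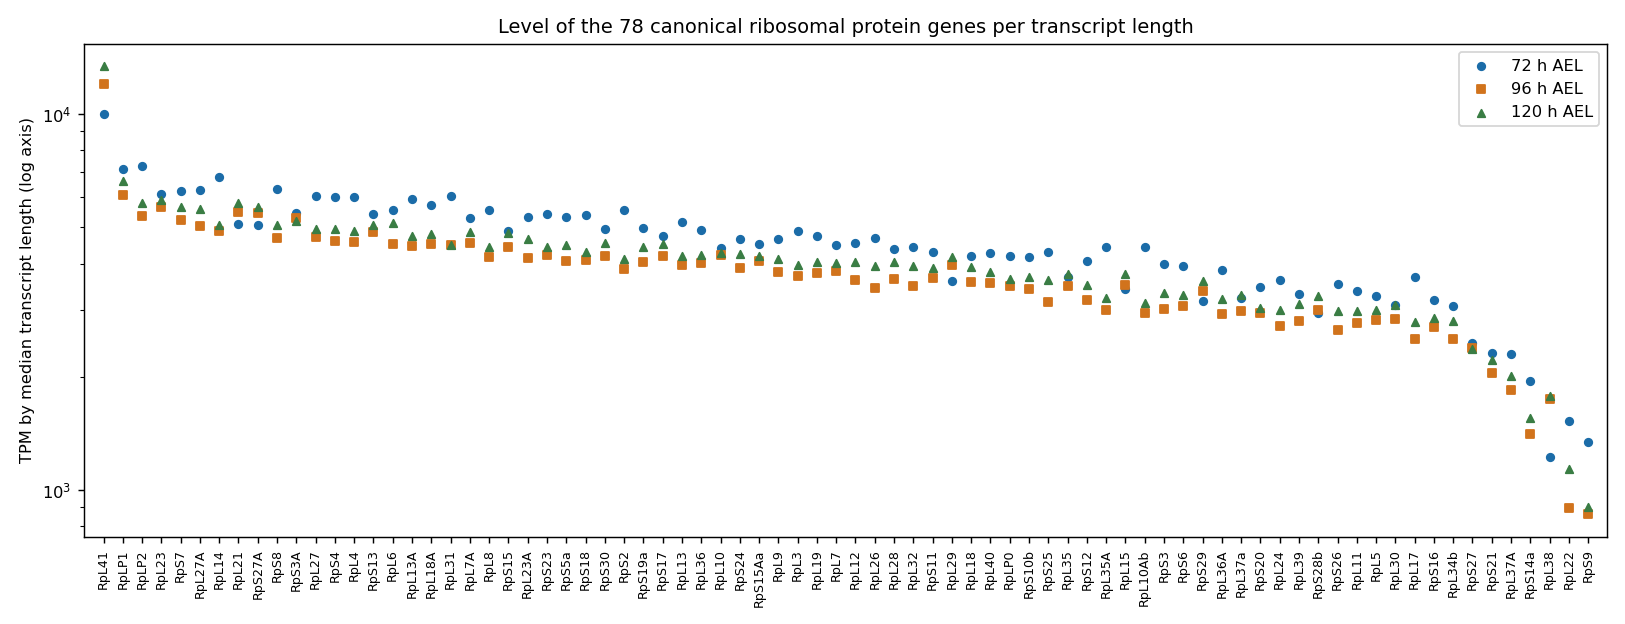
TPM by median transcript length, on a log axis, of the 78 canonical genes ordered by their mean level, with 1 point per library. RpL41 stands highest at 9978, 11994 and 13396 TPM at 72, 96 and 120 h AEL, the middle 50% of the genes lie between 3249 and 4705 TPM at 120 h AEL, and RpS9, RpL22, RpL38 and RpS14a lie at the low end.

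By counts, which also depend on length, RpL4, RpL3, RpS4, RpL23A and RpL7A were the 5 most abundant members on average. RpL4, which reaches into the exit tunnel, had 5577, 4077 and 4464 CPM at 72, 96 and 120 h AEL. RpL3, a protein close to the peptidyl transferase centre, had 4840, 3538 and 3854 CPM. RpS4 had 4270, 3156 and 3451 CPM, RpL23A, at the docking site of the signal recognition particle, 4111, 3078 and 3542 CPM, and RpL7A 3842, 3183 and 3483 CPM. All 5 were highest at 72 h AEL and lowest at 96 h AEL, with log2 ratios in the first step between -0.45 and -0.27. Other genes overlap some of the 5. On the same strand, the noncoding gene Uhg7 covers 421 of the exonic bases of RpL23A. On the opposite strand, CG7974 covers 121 bases of RpL23A and asRNA:CR31144 covers 412 bases of RpL3. Reads there could have been given to either gene or dropped. The 10 members with most counts together held 22.7%, 22.0% and 21.8% of the set's counts at 72, 96 and 120 h AEL.

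The stalk, a flexible arm of the large subunit that recruits elongation factors, is formed by RpLP0 and by pairs of RpLP1 and RpLP2. RpLP0 had 3507, 2815 and 3004 CPM at 72, 96 and 120 h AEL, RpLP1 3237, 2649 and 2956 CPM and RpLP2 2908, 2062 and 2279 CPM. All 3 were highest at 72 h AEL. In the first step the log2 ratio was -0.50 for RpLP2, below that of RpLP0 (-0.32) and RpLP1 (-0.29), and in the second step the 3 had 0.09 (RpLP0), 0.16 (RpLP1) and 0.14 (RpLP2).

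RpL40 and RpS27A are made as fusions with ubiquitin, the small protein that marks others for degradation. RpL40 had 1763, 1407 and 1541 CPM at 72, 96 and 120 h AEL, with log2 ratios of -0.32 in the first step and -0.19 over the whole interval. RpS27A had 1987, 2053 and 2182 CPM and was highest at 120 h AEL. The fusions share ubiquitin sequence with the polyubiquitin genes, so reads of that stretch are of uncertain origin.

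RpS6, the target of S6 kinase in the TOR growth pathway, had 2807, 2112 and 2319 CPM at 72, 96 and 120 h AEL, with log2 ratios of -0.41, 0.14 and -0.28 in the first step, in the second step and over the whole interval. RpS21 had 753, 645 and 714 CPM, with log2 ratios of -0.22, 0.15 and -0.08 in these comparisons. Both genes were highest at 72 h AEL and lowest at 96 h AEL. RpS6 lay 0.07 below the median of the set in the first step, and RpS21 lay 0.12 above it. On the same strand, snoRNA:Or-aca2 covers 142 and the pseudogene CR33222 covers 60 of the exonic bases of RpS6. Reads there could have been given to either gene or dropped.

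Of the 13 families with more than 1 copy, each had 1 copy with nearly all or most of the counts. The 14 other copies together took 0.103%, 0.0836% and 0.0881% of all counts at 72, 96 and 120 h AEL. The share of a copy within its family does not depend on library scaling. Of the 14, 5 had over 1000 counts in every library (RpS14b, RpL34a, RpL24-like, RpS15Ab, RpLP0-like), RpS19b and RpS5b were low, and 7 were at or near 0.

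RpS14a and RpS14b lie next to each other on chromosome X (7933742 to 7934677 and 7934898 to 7935792, plus strand) and encode the same protein of the small subunit platform. RpS14b had 16468, 10125 and 10788 counts at 72, 96 and 120 h AEL, and RpS14a had 50783, 25493 and 25487 counts. RpS14b thus took 24.5%, 28.4% and 29.7% of the pair's counts at 72, 96 and 120 h AEL, with intervals of 24.2% to 24.8%, 28.0% to 28.9% and 29.3% to 30.2%. Per median transcript length its share was 29.9%, 34.3% and 35.8%, and per length of the union of all exons 32.3%, 36.8% and 38.3%. The log2 ratio in the first step was -0.24 for RpS14b and -0.53 for RpS14a, and over the whole interval it was 0.03 for RpS14b, which turned negative under total-count scaling, and -0.35 for RpS14a. The copies are near-identical, so how reads common to both were counted could set these shares.

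The pair RpL34a and RpL34b encodes a large subunit protein. RpL34a had 306, 294 and 289 CPM at 72, 96 and 120 h AEL. RpL34b had 1403, 1104 and 1263 CPM. RpL34a was level while RpL34b was lowest at 96 h AEL, so the share of RpL34a in the pair's counts was 17.9%, 21.0% and 18.6% at 72, 96 and 120 h AEL, with intervals of 17.6% to 18.1%, 20.7% to 21.4% and 18.3% to 19.0%.

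RpL24-like and RpLP0-like are relatives of the yeast assembly factors Rlp24 and Mrt4, which hold the places of RpL24 and RpLP0 in the maturing large subunit. RpL24-like had 156, 117 and 139 CPM at 72, 96 and 120 h AEL, with log2 ratios of -0.42 in the first step and 0.24 in the second step, and RpL24 had 1982, 1441 and 1626 CPM, with -0.46 and 0.17. RpL24-like took 7.32%, 7.51% and 7.85% of the pair's counts at 72, 96 and 120 h AEL. On the opposite strand, CG7099 covers 273 of the exonic bases of RpL24 and Dtd covers 23 of those of RpL24-like.

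RpLP0-like and RpLP0 had opposite signs in the second step. RpLP0-like had 109, 89.6 and 76.3 CPM over the 3 times, being lower at each later time, by 1.22-fold in the first step (1.17 to 1.27) and 1.17-fold in the second step (1.11 to 1.24), while RpLP0 was higher in the second step. Its share of the pair's counts was 3.02%, 3.08% and 2.48% at 72, 96 and 120 h AEL, with intervals of 2.95% to 3.10%, 2.98% to 3.19% and 2.38% to 2.57%. Jra, on the opposite strand, covers 39 of its exonic bases.

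RpS15Ab, the second copy of a small subunit protein, had 91.1, 71.7 and 79.4 CPM at 72, 96 and 120 h AEL, against 2203, 1914 and 2007 CPM for RpS15Aa. Its share of the pair's counts was 3.97%, 3.61% and 3.81%. These copies are also near-identical, and part of the RpS15Ab counts may belong to RpS15Aa.

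Several of the remaining copies are known mainly from the testis or the ovary. RpS19b, a copy of RpS19a, whose human counterpart RPS19 is mutated in Diamond-Blackfan anaemia, had 369, 92 and 83 counts at 72, 96 and 120 h AEL. It was 2.90-fold lower in the first step (2.31 to 3.69) and 2.84-fold lower over the whole interval (2.24 to 3.65). RpS19a had 2229, 1742 and 1953 CPM, so the share of RpS19b in the pair's counts was 0.319%, 0.141% and 0.128% at 72, 96 and 120 h AEL, with intervals of 0.288% to 0.353%, 0.115% to 0.172% and 0.103% to 0.159%. The 72 h AEL library was the only high one, and its interval does not overlap the later ones, within counting error. RpS19b lies on chromosome 3R at 23932729 to 23933530 on the minus strand.

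RpS5b, a copy of RpS5a known from the ovary, had 44, 6 and 6 counts at 72, 96 and 120 h AEL and was below the limit of 1 CPM for testing in all 3 libraries. It was 5.31-fold lower in the first step (2.25 to 15.3) and 4.69-fold lower over the whole interval (1.99 to 13.5), next to 171027, 91180 and 90555 counts of RpS5a at 72, 96 and 120 h AEL. Such low counts could also come from reads of RpS5a placed on the copy.

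Of the 7 others, RpL37b had 8, RpS10a 6 and RpL22-like 4 counts at 72 h AEL and 0 counts at 96 and 120 h AEL. A count of 0 still allows up to 3 counts, which is 0.0800 CPM at 96 h AEL and 0.0905 CPM at 120 h AEL, so a difference from 72 h AEL was not detectable at this depth for any of the 3. RpS28a, RpS28-like, RpL10Aa and RpL7-like had 0 counts in all 3 libraries, which allows up to 0.0579 CPM at 72 h AEL. For RpL7-like this says little, since CG34164 covers 1771 of its exonic bases on the same strand. The canonical partners were all abundant, with RpS10b at 2135, 1692 and 1865 CPM, RpL37a at 1994, 1778 and 1997 CPM and RpL7 at 3050, 2515 and 2696 CPM at 72, 96 and 120 h AEL. RpL37a is a different gene from RpL37A, which encodes another large subunit protein.

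Gonad genes were looked at beside these copies. Of 4 germ line genes, vas had 34, 6 and 4 counts, nos 4, 3 and 0, bam 237, 117 and 52, and aub 77, 132 and 146 counts at 72, 96 and 120 h AEL. Of 6 spermatocyte genes, mia had 658, 614 and 457 counts and can 10, 4 and 0, while the other 4 had at most 2 counts in any library. The gonad soma gene tj had 61, 2 and 8 counts. Scaled for library size, vas, bam and tj were highest at 72 h AEL, as RpS19b and RpS5b were. The most highly counted of these genes, mia, had 12.7, 16.4 and 13.8 CPM over the 3 times, being lowest at 72 h AEL, as aub was, at 1.49, 3.52 and 4.41 CPM. The counts of nos and can were too few to order the libraries. Their part in the counts of RpS19b and RpS5b was not tested.

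**Figure D4:**
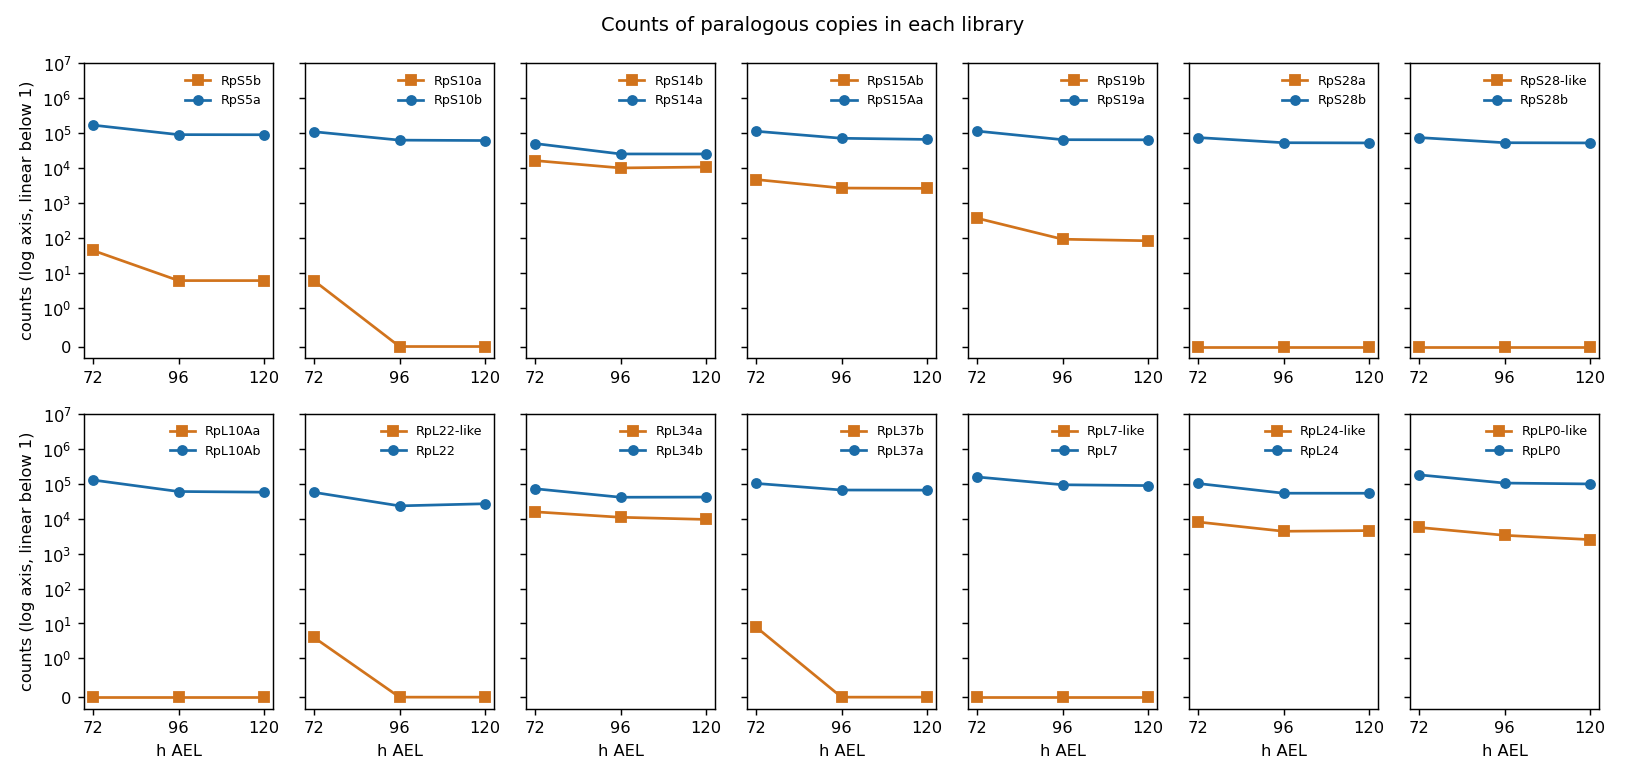
Counts per library of each other copy (orange squares) and its canonical copy (blue circles) at 72, 96 and 120 h AEL, on an axis that is logarithmic above 1 count and linear below, not scaled for library size. RpS14b, RpL34a, RpL24-like, RpS15Ab and RpLP0-like stay above 1000 counts, RpS19b drops to 92 and 83 counts against 369 at 72 h AEL, and 7 copies are at 0 counts at 96 and 120 h AEL.

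The ribosomal protein genes were also set beside other genes of translation, listed by role with earlier results of these data known. sta and Rack1, the components of the small subunit that do not carry an RpS name here, had medians of the same sign as the set. sta had 4681, 3782 and 4145 CPM and Rack1 4324, 3640 and 3885 CPM at 72, 96 and 120 h AEL, with a median log2 ratio of the pair of -0.28 in the first step, 0.11 in the second step and -0.16 over the whole interval.

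The 8 genes listed as elongation factors, which include Tctp although it is not itself an elongation factor, had smaller medians. Their median log2 ratio was -0.14 in the first step (8 of 8 below 0, where 51.7% of all tested genes were), 0.08 in the second step (6 above 0, where 48.9% of all tested genes were, and 2 below) and -0.07 over the whole interval (8 of 8 below 0, where 52.6% of all tested genes were). Some of these values were close to 0, such as those of eEF1delta (-0.00047) and eIF-5A (-0.016) in the first step and of Ef1beta (-0.0062) over the whole interval. Ef1alpha48D, which brings transfer RNAs to the ribosome, had 24413, 22983 and 24133 CPM at 72, 96 and 120 h AEL. EF2, which drives translocation, had 9872, 8114 and 8639 CPM. Ef1alpha100E stood apart, at 1173, 40 and 40 counts, a log2 ratio of -3.52 in the first step. The summed muscle and neuron markers given above were also highest at 72 h AEL, and their part in this value was not tested.

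Genes of ribosome biogenesis, of which 21 of the 24 listed were found and tested, were mostly lower in both steps. Their median log2 ratio was -0.34 in the first step (18 lower, where 51.7% of all tested genes were, and 3 higher), -0.23 in the second step (19 lower, where 47.8% of all tested genes were, and 2 higher) and -0.61 over the whole interval (18 lower, where 52.6% of all tested genes were, and 3 higher). Lower by 1.5-fold or more were 2 of the 21 in the first step (24.9% of all tested genes), 0 in the second step (3.15%) and 12 over the whole interval (27%). At 2-fold, 0 were lower in any comparison, where 19.5%, 1.12% and 20.7% of all tested genes were. Higher by 2-fold was 1, dm, in the first step (4.76% of all tested genes) and over the whole interval (7.39%). In the second step the medians of the biogenesis genes (-0.23) and of the 84 ribosomal protein genes (0.14) had opposite signs, under each scaling tried.

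Fib, the methyltransferase of nucleolar RNA-guided modification, had 336, 194 and 188 CPM at 72, 96 and 120 h AEL. nop5, its partner, had 546, 347 and 297 CPM. eIF6, which keeps new large subunits from joining too early, had 145, 107 and 82.2 CPM, and RpI1, the largest subunit of the polymerase that makes ribosomal RNA, 195, 164 and 133 CPM. These 4 were highest at 72 h AEL and lowest at 120 h AEL. Non1, a nucleolar GTPase, had 829, 738 and 861 CPM, with its low value at 96 h AEL. dm, which encodes Myc, a transcription factor that drives ribosome synthesis in the fly, had 121, 277 and 284 CPM, a log2 ratio of 1.19 in the first step, and was lowest at 72 h AEL.

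**Figure D5:**
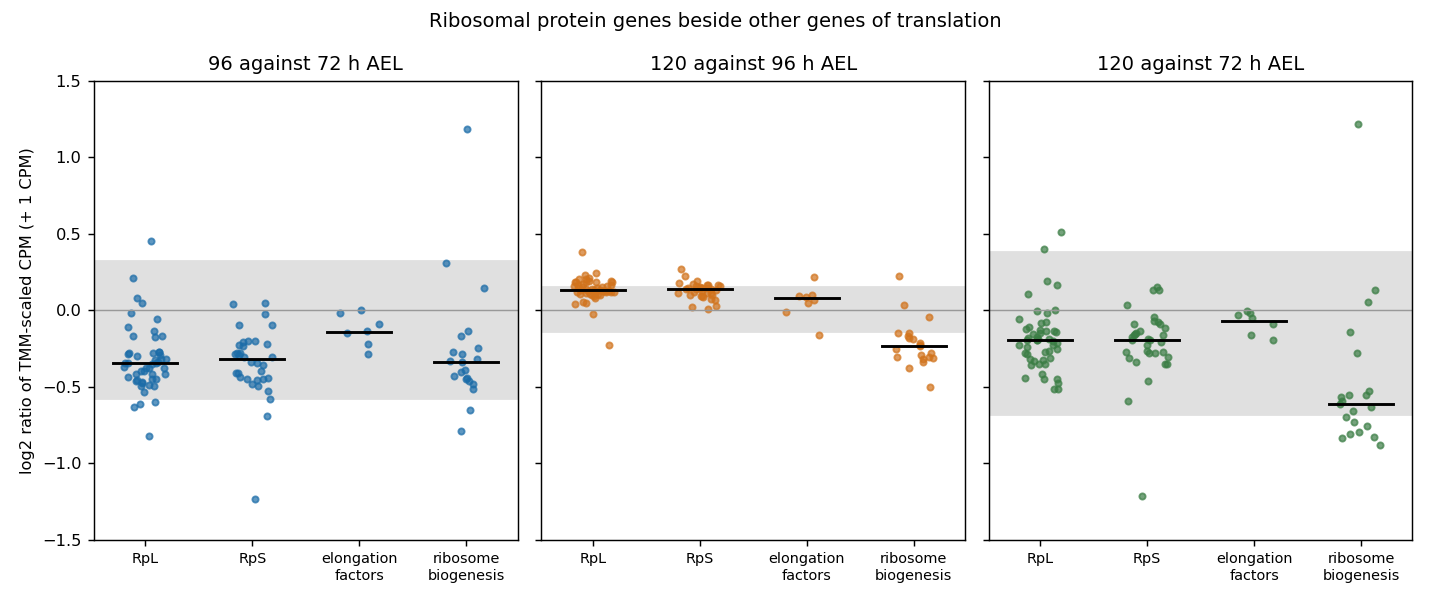
Log2 ratios of TMM-scaled CPM plus 1 in the 3 pairs of libraries for 50 RpL, 34 RpS, 8 elongation factor and 21 ribosome biogenesis genes. Tctp is counted with the elongation factors. Each dot is a gene, the black bar its group's median and the grey band the middle 50% of all 9056 tested genes. In the second step the RpL and RpS medians are 0.13 and 0.14 and the biogenesis median is -0.23, with the same signs under every scaling tried; Ef1alpha100E, at -3.52 in the first step and -3.42 over the whole interval, lies below the axis and is not drawn.

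Position, host genes and length were compared as properties that the choice by name did not use. Members lay on every major arm, with 19 on 2L, 21 on 2R, 14 on 3L, 23 on 3R, 14 on X and 1 on 4. Median log2 ratios in the first step were -0.32 on 2L (17 tested genes), -0.31 on 2R (19), -0.41 on 3L (14), -0.42 on 3R (19) and -0.34 on X (14). In the second step the medians of these 5 arms lay between 0.12 and 0.16. In the 27 genes that carry annotated snoRNA genes in their introns the median in the first step was -0.39, and in the other 57 it was -0.34.

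Genes with short transcripts had a smaller median step. For 17 tested genes with a median transcript under 600 bases, the median log2 ratio was -0.28 in the first step and -0.11 over the whole interval, and for the 67 longer ones it was -0.36 and -0.20. Across the 78 canonical genes the Pearson correlation of the log2 ratio with log2 transcript length was -0.31 in the first step, 0.05 in the second step and -0.32 over the whole interval, as a description over genes that share libraries. RpL41 and RpL29 are among the short ones, and fragment length in the 3 libraries was not analysed here.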

How the data were processed

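Bulk RNA-seq of Oregon-R lymph glands was analysed at 72, 96 and 120 h AEL, with 1 library per time, grouped by the time in the labels. The authors deposited raw counts per gene, without normalization, for 17490 genes. The submitters' processing notes name FastQC 0.11.8, STAR 2.5.3a, featureCounts 1.6.0 and the build BDGP6, and the use of strand and the treatment of reads with several places are not given in the sources used here. Positions and lengths came from Ensembl release 115 (BDGP6.54), where 87 of the 92 genes matched by identifier and 5 by symbol.

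TMM factors (1.05, 0.989 and 0.967 at 72, 96 and 120 h AEL) were computed with edgeR 4.0.16 in R 4.3.3, on genes that reached 1 CPM in 1 library or more, and size factors of DESeq2 1.42.0 served as an alternative. Log2 ratios were taken after adding 1 CPM, so changes of low genes are understated. Folds of single genes used scaled counts without a pseudocount, with exact (Clopper-Pearson) 95% intervals of a ratio of Poisson counts. Shares carry Wilson 95% intervals. A gene was called changed at 2-fold. The remaining steps ran in Python 3.11.15 with pandas 2.3.3, SciPy 1.17.1 and NumPy 2.4.6, figures were drawn with Matplotlib 3.10.9, and the functions were tested on simulated data.

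Members and lists were chosen with earlier results of these data known. Genes were named if they had 1 of the 5 highest mean levels, were among the 5 largest or smallest log2 ratios of a comparison (at least 10 CPM in at least 1 compared library), belonged to a family with several copies, or were RpS6, RpS21, RpS3A, RpL40, RpS27A or a stalk gene. RpL37A and RpL15 were named after their values were seen. Alternatives were other scalings, pseudocounts of 0.1 and 5 CPM, other filters, thresholds of 1.5-fold and 4-fold, other totals, canonical copies only, and halved counts. Union exonic length, and members without overlapping genes or without intronic snoRNA genes, were added after the data were seen.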

Additional observations from a re-analysis of the deposited data

How the results depend on the processing

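No paired analysis was possible because each time had 1 library, and for the same reason no replicate could be left out. Under total-count scaling the median log2 ratio of the ribosomal protein genes was -0.43 in the first step (96 against 72 h AEL), 0.10 in the second step (120 against 96 h AEL) and -0.31 over the whole interval (120 against 72 h AEL), and the median of all tested genes was -0.15 in the last comparison, against -0.04 with TMM. The ribosomal protein genes then split into 81 lower (57.2% of all tested genes) and 3 higher (42.8%) in the first step. In the second step 79 were higher (43.98% of all tested genes) and 5 lower (52.7%). Over the whole interval 77 were lower (58.8% of all tested genes) and 7 higher (41.2%). With TMM, 51.7% of all tested genes were lower in the first step and 52.6% over the whole interval. With DESeq2 size factors or TMM without the ribosomal protein genes, only RpL37a turned, over the whole interval.

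The single gene lower by 2-fold, RpS19b, was lost in the first step and over the whole interval (0 genes) with a pseudocount of 5 CPM, a filter of 10 CPM, canonical copies only or a 4-fold threshold, and 1.5-fold gave 6 and 2 genes in these comparisons. Leaving genes of rRNA and of the mitochondrial genome out of the total, the share of the set was 19.5%, 15.1% and 16.0% at 72, 96 and 120 h AEL, with canonical copies only 18.6%, 14.0% and 15.0%, and without the 10 most abundant other genes 21.4%, 16.3% and 17.5%. Depth limits the copies with few counts, and the single library per time limits every comparison. Leaving out members overlapped by another gene gave medians of -0.34, 0.13 and -0.19 in the first step, the second step and over the whole interval.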
